A study of Mus musculus with 6 samples.

Results

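Collagen chain genes were taken as every row of the deposited gene tables whose symbol is Col, a number, the letter a and a number, which gave 44 of 49212 genes. They were read in RNA from the livers of 15 weeks old C57BL/6J mice, in 3 libraries from mice that the labels give as DHT pellet treated PCOS mice and 3 libraries from mice given placebo. DHT is dihydrotestosterone, an androgen that cannot be turned into estrogen, and the pellet is a slow-release implant used to model polycystic ovary syndrome (PCOS). The labels name no sex, dose, time of day, litter or sequencing batch, and do not state whether each library is its own animal. The p-values therefore reflect the scatter among these 6 libraries, which may be partly technical.

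Collagens are extracellular proteins built of 3 chains wound into a triple helix. Fibrillar collagens such as types I, III and V form the banded fibres of connective tissue, type IV collagen forms the sheet-like network of basement membranes, and other types decorate fibres, anchor membranes or form beaded filaments. In liver, stellate cells and portal fibroblasts are the usual source of fibrillar chains and deposit them in fibrosis, while hepatocytes are known to make type XVIII collagen, whose end fragment is endostatin. In bulk RNA, fewer cells of a type and less RNA per cell cannot be told apart.

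Total counts were 41336844 to 59257416 in the DHT libraries and 52814320 to 60209462 in the placebo libraries. Both libraries numbered 3 stood apart from libraries 1 and 2 of their group in many collagen genes, as given below. The 4 Y-linked marker genes summed to 137 to 153 CPM (the count scaled to a fixed library total, with totals adjusted by TMM to even out differences in RNA composition) in the DHT libraries and to 0.123 to 0.197 CPM in the placebo libraries, so the DHT label and the Y-linked signal cannot be told apart in any difference below. Mitochondrial genes took 6.44 to 8.47% of counts in DHT and 3.23 to 6.83% in placebo.

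Of 28 collagen genes tested, 3 passed the test between the groups, against 1.65% of all genes tested: Col5a3 rose, and Col4a5 and Col25a1 fell. For these 3, the bases before their RefSeq start are shown (build GRCm38.p6, a window of 250, read 5′ to 3′ on the gene's own strand). Every CCAAT and every GC box (GGGCGG) on either strand is in capitals. Col5a3 lies at chr9:20815068-20815317 on the minus strand, Col4a5 at chrX:141475169-141475384 on the plus strand and Col25a1 at chr3:130180595-130180844 on the plus strand.
Col5a3: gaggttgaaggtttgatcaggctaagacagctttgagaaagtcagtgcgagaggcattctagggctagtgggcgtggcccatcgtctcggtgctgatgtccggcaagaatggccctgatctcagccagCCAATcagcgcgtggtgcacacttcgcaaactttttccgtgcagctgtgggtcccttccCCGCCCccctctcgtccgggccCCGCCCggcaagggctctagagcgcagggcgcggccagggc
Col4a5: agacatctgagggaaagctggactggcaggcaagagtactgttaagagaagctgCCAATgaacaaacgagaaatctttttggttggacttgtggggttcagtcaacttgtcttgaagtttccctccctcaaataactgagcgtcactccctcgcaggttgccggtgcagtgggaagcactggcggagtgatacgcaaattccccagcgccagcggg
Col25a1: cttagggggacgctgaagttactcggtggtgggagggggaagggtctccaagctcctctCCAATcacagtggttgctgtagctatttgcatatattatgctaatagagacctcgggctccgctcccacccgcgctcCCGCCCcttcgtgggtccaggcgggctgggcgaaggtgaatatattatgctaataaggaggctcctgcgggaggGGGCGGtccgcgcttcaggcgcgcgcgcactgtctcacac

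Each of these windows held 1 CCAAT, and the GC boxes numbered 2 before Col5a3, 1 before Col4a5 and 2 before Col25a1. The RefSeq starts of Col4a5 and Col25a1 are downstream of the gene starts in the deposited files. The last 34 bases of the Col4a5 window, which hold its GC box, lie within the deposited gene and are not printed, and the whole Col25a1 window lies within the deposited gene. None held TATAAA or the E-box CACGTG. RefSeq windows were found for 35 of the 44 genes, and those of Col12a1, Col14a1, Col1a1, Col22a1, Col26a1, Col2a1, Col4a3, Col5a2 and Col9a3 are not shown or counted. Among the 38 windows of these 35 genes, 22 held a GC box, 13 a CCAAT, 5 a TATAAA and 0 the E-box. Of all 32851 RefSeq windows of that length, 32.7% held a GC box, 33.8% a CCAAT, 12.4% a TATAAA and 6.02% the E-box. The motifs overlap in no printed window, and a match describes the letters alone.

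Of the 44 genes, 28 had enough counts to be tested, and 3 of these 28 were called at an adjusted p under 0.05 by edgeR's quasi-likelihood test with Benjamini-Hochberg adjustment over all 15126 genes tested, 1 higher and 2 lower. Over all genes tested, 250 were called, a share of 1.65%, with 144 (0.952%) higher and 106 (0.701%) lower. With library size alone in place of TMM, all genes gave 207 higher and 89 lower calls and the collagen genes 1 of each. At an unadjusted p under 0.05 there were 7 of the 28 collagen genes, 2 higher and 5 lower, against 15.9% of all genes, 7.4% higher and 8.52% lower. The median log2 fold change (DHT minus placebo) was −0.45 over the 28 genes and −0.02 over all genes tested, and 21 of the 28 had a value below 0, against 51.9% of all genes. In 3 of the 28 all DHT libraries lay above all placebo libraries, against 12.7% of all genes, and in 4 all lay below, against 10.9%. With the replicate number as a block, 7 of the 28 were called, 2 higher and 5 lower, against 10.7% of all genes. This block, also used below, was inferred from these same libraries and is not given by the labels. The number of collagen genes called was 1 in each fit that left out placebo 1, placebo 2 or any DHT library. It was 5 without placebo 3, and 4 without both libraries numbered 3. Over all genes, 94, 105, 95, 84 and 165 were called without placebo 1, placebo 2, DHT 1, DHT 2 and DHT 3. Without placebo 3 it was 862 of all genes, and without both libraries numbered 3 it was 448. In every one of these fits Col5a3 was among the genes called.

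**Figure D1:**
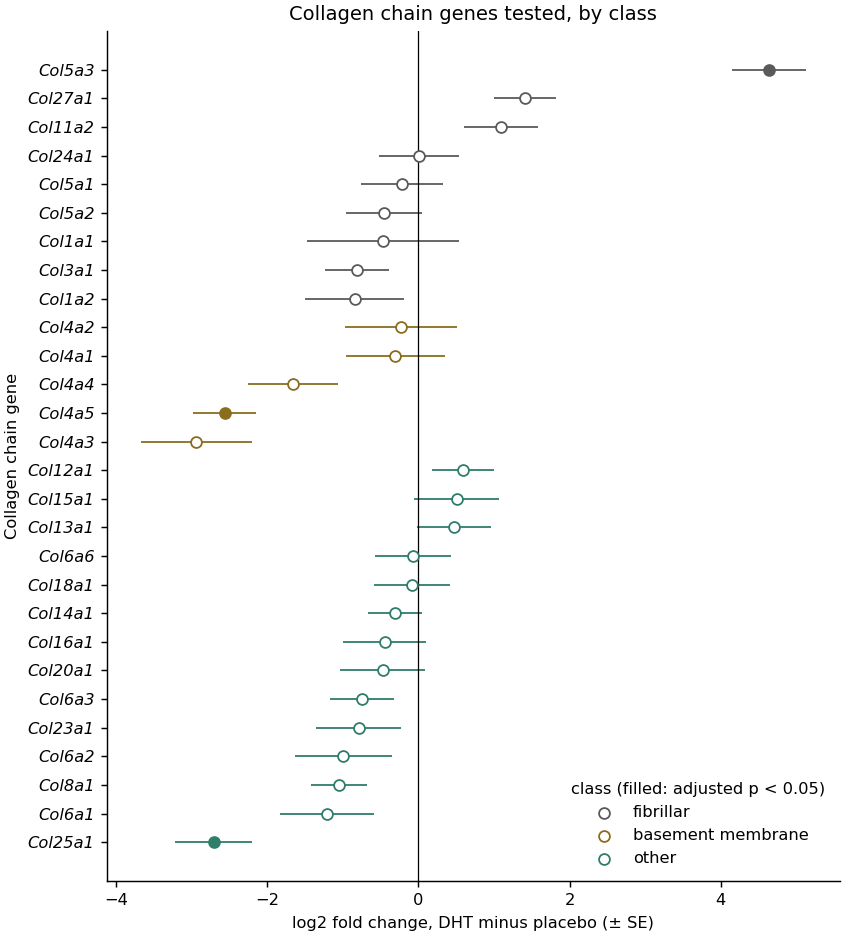
Log2 fold change (DHT minus placebo, x axis) of the 28 tested collagen chain genes (y axis), with bars of ± SE from the edgeR fit over 3 DHT and 3 placebo libraries, coloured by class and filled where the adjusted p was under 0.05. Col5a3 lies far to the right at 4.64, Col4a5 and Col25a1 are filled on the left, and 19 of the 28 lie within 1 unit of 0.

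Among the fibrillar chains, Col5a3 stood out. It encodes the α3 chain of type V collagen, which can replace another α chain in type V trimers (GRCm38 chromosome 9, 20770050 to 20815067, minus strand). It had 25.1, 29.6 and 34.6 CPM in DHT libraries 1 to 3, against 1.91, 1.16 and 0.493 CPM in placebo libraries 1 to 3. Every DHT library was above every placebo library, the lowest DHT value being many times the highest placebo value. In raw counts these were 1545, 1655 and 1548 in DHT and 111, 59 and 24 in placebo. The rise was 24.9-fold, a log2 fold change of 4.64 ± 0.49 (SE, 3 libraries a group, edgeR adjusted p = 0.00518), and it passed in all 17 alternatives, where the highest adjusted p was 0.038 (edgeR, without placebo 2) and the log2 fold change lay between 4.15 and 5.14. Exons of Col5a3 overlap those of no other counted gene.

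The 2 partner chains of type V did not move in the same way. Col5a1, the chain found in nearly all type V trimers, averaged 6.23 ± 2.38 CPM in DHT and 7.25 ± 4.92 CPM in placebo (SD, n = 3 each), with a log2 fold change of −0.22 ± 0.54. Col5a2, which joins Col5a1 in the common trimer, averaged 2.70 ± 0.73 CPM in DHT and 3.70 ± 2.47 CPM in placebo, with a log2 fold change of −0.45 ± 0.50. Neither passed, and the sign turned to positive without placebo 1 for both (0.41 for Col5a1 and 0.19 for Col5a2) and without DHT 3 for Col5a1 (0.07). Set against Col5a1 per kb of exon in the same library, the Col5a3 level was 3.95, 5.08 and 12.3 times as high in DHT libraries 1 to 3 and 0.191, 0.22 and 0.228 times as high in placebo libraries 1 to 3. Thus Col5a3 was the most abundant type V chain per length in each DHT library and the least abundant in each placebo library. Col5a3 made up 21.8, 18.2 and 44.1% of the summed CPM of fibrillar genes in DHT libraries 1 to 3, against 1.08, 0.985 and 0.505% in placebo libraries 1 to 3.

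The next fibrillar genes by p-value were Col27a1 and Col11a2. Col27a1, a fibrillar chain best known from cartilage (chromosome 4, 63214004 to 63334991), had 5.91, 15.3 and 16.1 CPM in DHT, against 3.44, 5.40 and 5.201 CPM in placebo. All DHT values were above all placebo values, DHT 1 only slightly so. The log2 fold change of Col27a1 was 1.41 ± 0.41 (edgeR adjusted p = 0.158), which passed with the replicate block (edgeR adjusted p = 0.00141) and in 3 of 17 alternatives in all. Col11a2, another cartilage-type fibrillar chain, was near the floor of detection, with 14, 16 and 23 counts in DHT and 11, 7 and 7 in placebo (log2 fold change 1.09 ± 0.49, edgeR adjusted p = 0.323). Col24a1, a minor fibrillar chain, held 3 to 14 counts in DHT libraries and 7 to 10 in placebo libraries, and the other fibrillar genes, Col2a1 and Col11a1, held at most 1 count in any library.

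**Figure D2:**
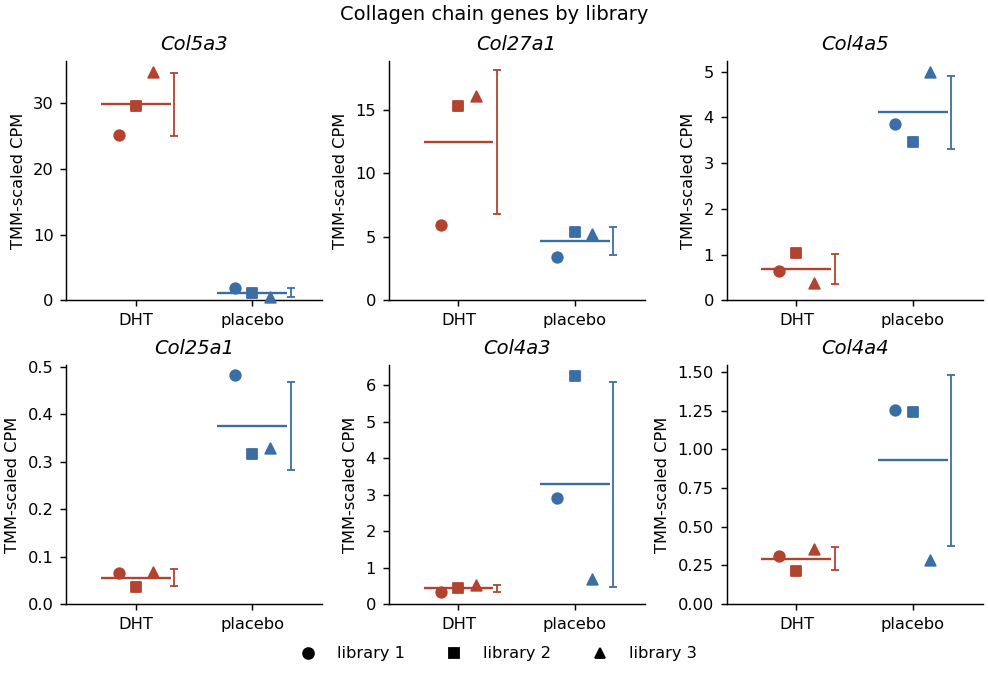
TMM-scaled CPM (y axis, linear from 0) of 6 collagen chain genes in the DHT and placebo libraries, with symbols for library 1, 2 and 3, a line at the mean and a bar of ± SD (n = 3). Col5a3 and Col27a1 lie higher in DHT, the other 4 genes have a lower mean in DHT, and placebo library 3 lies near the DHT libraries in Col4a3 and Col4a4.

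The classical fibrillar chains, those of types I and III, gave no difference beyond the spread. Col3a1, the chain of type III collagen (chromosome 1, 45311538 to 45349706), had 40.2, 51.6 and 14.9 CPM in DHT libraries 1 to 3, against 66.6, 50.1 and 70.5 CPM in placebo libraries 1 to 3. The groups overlapped by 1 library, DHT 2. The log2 fold change of Col3a1 was −0.81 ± 0.43 (edgeR adjusted p = 0.386). Col1a2, the α2 chain of type I (chromosome 6, 4504814 to 4541544), had 18.99, 31.9 and 5.35 CPM in DHT and 53.0, 33.4 and 14.8 CPM in placebo. Its log2 fold change was −0.85 ± 0.65 (edgeR adjusted p = 0.549), and with the replicate block −1.01 (edgeR adjusted p = 0.0166). That call did not stand with GC and length trends removed in the same blocked fit (edgeR adjusted p = 0.1). Col1a1, the α1 chain of type I (chromosome 11, 94936224 to 94953042), ranged widely within each group, with 13.3, 23.1 and 1.61 CPM in DHT and 32.2, 18.1 and 2.14 CPM in placebo. Its log2 fold change was −0.46 ± 1.01 (edgeR adjusted p = 0.858), with a positive sign without placebo 1 (0.32) or DHT 3 (0.06).

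Within type I, the balance of the chains also depended on the library. Per kb of exon, the level of Col1a1 was 1.33, 1.37 and 0.57 times that of Col1a2 in DHT libraries 1 to 3 and 1.15, 1.03 and 0.274 times in placebo libraries 1 to 3. Type I collagen is usually a trimer with a pair of α1 chains and a single α2 chain. Both libraries numbered 3 had the lowest ratio of their group.

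Type IV chains form 3 head-to-head gene pairs, and no test compared the pairs with each other. Col4a1 and Col4a2 encode the α1 and α2 chains of nearly all basement membranes and start 21 bases apart on opposite strands of chromosome 8. Col4a3 and Col4a4 start 72 bases apart on chromosome 1, and Col4a5 and Col4a6 start 1309 bases apart on chromosome X. The α3, α4 and α5 chains join in a separate trimer, best known from the kidney glomerulus. All 5 tested type IV genes had a negative log2 fold change, against 51.9% of all genes tested. Of the 5, 1 was called, Col4a5, against 1.65% of all genes.

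Col4a5 (chromosome X, 141475385 to 141689234, plus strand) had 0.649, 1.04 and 0.38 CPM in DHT, against 3.85, 3.47 and 4.996 CPM in placebo. Every DHT library was below every placebo library, and placebo 3, which was low in most other collagen genes, had the highest value. In counts it had 40, 58 and 17 in DHT and 224, 176 and 243 in placebo. Col4a5 fell by 2.56 ± 0.42 on the log2 scale, 5.91-fold (SE, edgeR adjusted p = 0.026). The direction held in 17 of 17 alternatives and the call in 12 of them. The call was lost without placebo 1, placebo 2, DHT 1, DHT 2 or DHT 3 (edgeR adjusted p = 0.0931, 0.0712, 0.129, 0.0532 and 0.0636), with log2 fold changes of −2.97 to −2.28, and it stood without placebo 3 (edgeR adjusted p = 0.0124). Its neighbour Col4a6 had too few counts to be tested, with 5, 2 and 4 counts in DHT and 15, 9 and 1 in placebo.

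Every DHT value of Col4a3 was below every placebo value, and every DHT value of Col4a4 was below placebo 1 and placebo 2. Col4a3 (chromosome 1, 82586921 to 82722059) had 0.325, 0.447 and 0.515 CPM in DHT, against 2.91, 6.27 and 0.678 CPM in placebo. The groups did not overlap, but placebo 3 was close to the DHT values. The log2 fold change of Col4a3 was −2.94 ± 0.74 (edgeR adjusted p = 0.11), which passed with the replicate block (edgeR adjusted p = 0.00366), without placebo 3 (edgeR adjusted p = 0.00254) and in 8 of 16 alternatives in all. It did not pass without placebo 1, placebo 2 or any single DHT library (edgeR adjusted p = 0.168 to 0.345), and without placebo 2 the log2 fold change was −2.07. Exons of Col4a3 overlap those of an opposite-strand gene over 5.6% of their length, and their reads cannot be told apart without the strand setting. Col4a4 (chromosome 1, 82448423 to 82586849) had 0.308, 0.215 and 0.358 CPM in DHT, against 1.26, 1.24 and 0.288 CPM in placebo. Here placebo 3 fell among the DHT libraries, and the log2 fold change was −1.66 ± 0.60 (edgeR adjusted p = 0.236). Col4a4 passed without placebo 3 (edgeR adjusted p = 0.0214) and in 3 of 16 alternatives in all, and not when any other single library was left out (edgeR adjusted p = 0.283 to 0.589).

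In the common basement membrane pair neither gene was called, and the groups overlapped in both. Col4a1 averaged 27.5 ± 12.9 CPM in DHT and 33.9 ± 27.99 CPM in placebo (SD, n = 3 each), with a log2 fold change of −0.30 ± 0.66. Col4a2 averaged 16.9 ± 7.76 CPM in DHT and 19.9 ± 17.2 CPM in placebo, with a log2 fold change of −0.23 ± 0.74. Their signs depended on single libraries: both turned positive without placebo 1 (0.54 and 0.61) and without DHT 3 (0.05 and 0.10), and that of Col4a2 also with the replicate block (0.19). Within each library the Col4a2 level per kb was 0.728, 0.646 and 0.734 times that of Col4a1 in DHT and 0.659, 0.754 and 0.404 times in placebo. Relative to Col4a1 per kb, the level of Col4a5 was 0.0202, 0.0337 and 0.0336 in DHT libraries 1 to 3 and 0.0665, 0.138 and 0.593 in placebo libraries 1 to 3. These ratios of Col4a5 to Col4a1 did not overlap between the groups.

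**Figure D3:**
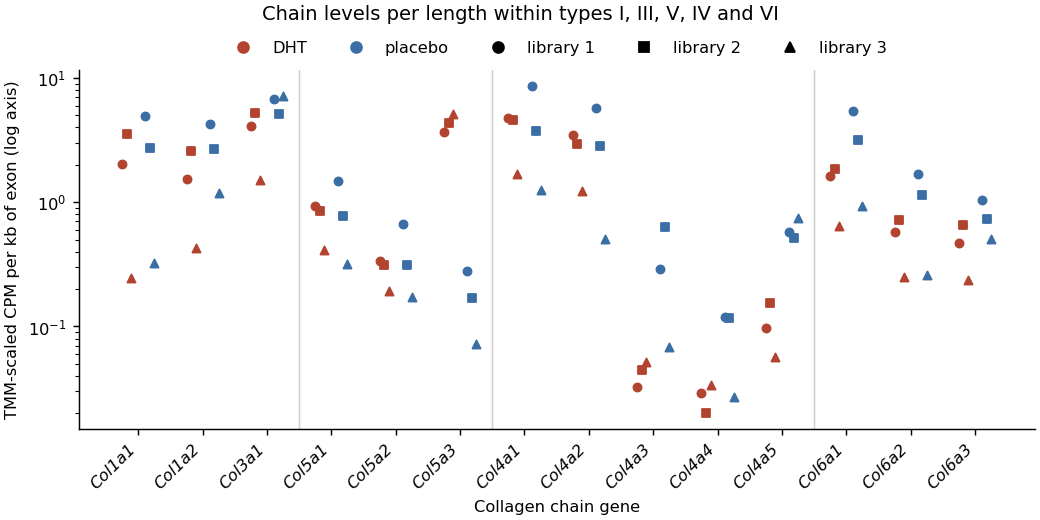
Level of each chain gene of types I, III, V, IV and VI (x axis) in TMM-scaled CPM per kb of exon (y axis, log scale), with DHT libraries left of placebo libraries and a symbol for each library number. Col5a3 lies above Col5a1 and Col5a2 in DHT and below them in placebo, Col4a3 to Col4a5 lie below Col4a1 and Col4a2 except for Col4a5 in placebo 3, which lies above Col4a2, and both libraries numbered 3 are low in Col1a1, Col4a1 and Col4a2.

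Among the other collagens, 1 of 14 tested genes was called, against 1.65% of all genes tested. Col25a1, which encodes a transmembrane collagen also known as a component of amyloid plaques in brain (chromosome 3, 130131501 to 130599877), was very low in all libraries. It had 4, 2 and 3 counts in DHT, against 28, 16 and 16 in placebo, or 0.0559 ± 0.0175 CPM against 0.375 ± 0.0924 CPM (SD, n = 3 each). The groups did not overlap in Col25a1. It fell by 2.71 ± 0.51 on the log2 scale, 6.54-fold (SE, edgeR adjusted p = 0.0424). The call was lost with library size alone (edgeR adjusted p = 0.0523), and without placebo 1, placebo 2, DHT 1, DHT 2 or DHT 3 (edgeR adjusted p = 0.155, 0.0884, 0.2, 0.235 and 0.135), and it stood without placebo 3 (edgeR adjusted p = 0.0279). Without both libraries numbered 3 it was also lost (edgeR adjusted p = 0.0679). The other transmembrane genes tested, Col13a1 and Col23a1, were not called (log2 fold change 0.47 ± 0.49 and −0.79 ± 0.57).

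The type VI chains, which form beaded microfilaments around cells, were lower on average in DHT and did not pass without the replicate block. Col6a1 had 7.17, 8.04 and 2.84 CPM in DHT and 23.8, 13.9 and 4.05 CPM in placebo, with placebo 3 inside the DHT range. Its log2 fold change was −1.21 ± 0.63 (edgeR adjusted p = 0.379), and −1.02 with the replicate block (edgeR adjusted p = 0.0165). Col6a2 averaged 4.29 ± 2.02 CPM in DHT and 8.55 ± 5.96 CPM in placebo (log2 fold change −0.99 ± 0.64; with the replicate block, edgeR adjusted p = 0.105, and with GC and length trends removed as well, edgeR adjusted p = 0.04). Col6a3 averaged 5.41 ± 2.49 CPM in DHT and 9.06 ± 3.22 CPM in placebo (log2 fold change −0.74 ± 0.42). Within each pair of same-numbered libraries, Col6a1, Col6a2 and Col6a3 were lower in DHT, by 0.51 to 1.73, 0.07 to 1.55 and 0.16 to 1.15 on the log2 scale. The labels give no such pairing, and libraries 1 and 2 correlated more across numbers than within them. The share of all genes lower in DHT in every such pair was not counted. The sum of the 6 type VI genes was 17.97, 22.3 and 7.92 CPM in DHT, against 50.6, 32.5 and 12.6 CPM in placebo. Col6a4, Col6a5 and Col6a6, later-described chains that can stand in for the α3 chain, held at most 17 counts in any library.

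Col18a1 was the most abundant collagen gene in every library. It had 797, 734 and 461 CPM in DHT, against 747, 1111 and 253 CPM in placebo (chromosome 10, 77052178 to 77166548). It took 74.9, 70.8 and 75.6% of the summed collagen CPM in DHT libraries 1 to 3 and 63.7, 79.9 and 59.1% in placebo libraries 1 to 3. The log2 fold change was −0.08 ± 0.50 (edgeR adjusted p = 0.955), and its sign turned in 4 of 17 alternatives, among them library size alone (0.10) and the replicate block (0.12). Col15a1, the second multiplexin, had a log2 fold change of 0.51 ± 0.56 and did not pass. Of the FACIT chains, which sit on the surface of fibrils, Col14a1 was the highest, with 58.3, 45.8 and 29.1 CPM in DHT and 75.2, 54.3 and 35.8 CPM in placebo (log2 fold change −0.31 ± 0.36, edgeR adjusted p = 0.704). The other FACIT chains tested were not called, with the log2 fold change of Col12a1 at 0.59 ± 0.41, Col16a1 at −0.44 ± 0.55, Col20a1 at −0.47 ± 0.56. Col8a1, a short-chain network collagen of vessel walls, had 0.572 ± 0.0964 CPM in DHT and 1.19 ± 0.268 CPM in placebo (SD, n = 3 each), with no overlap and a log2 fold change of −1.05 ± 0.37 (edgeR adjusted p = 0.228).

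The other 16 genes did not pass the low-count filter, and none of them held more than 15 counts in a library. Col26a1 had 0 counts in all 6 libraries, which allows at most 0.0487 to 0.0671 CPM in a DHT library and 0.0516 to 0.0617 CPM in a placebo library (3 counts of the total, counting error only). Col9a2, a cartilage FACIT chain, had 0, 0 and 0 counts in DHT and 2, 3 and 2 in placebo, and Col28a1, a chain known from peripheral nerve, had 0, 1 and 0 in DHT and 3, 4 and 3 in placebo. These 2 did not overlap between groups but rest on few counts and were named after their values were seen. Among all genes tested, 10.9% had every DHT library below every placebo library. No such share was taken for the genes under the filter. The remaining untested genes overlapped: Col2a1, Col4a6, Col6a4, Col6a5, Col7a1, Col8a2, Col9a1, Col9a3, Col10a1, Col11a1, Col17a1, Col19a1 and Col22a1.

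Summed by class, collagen transcripts differed little between the groups relative to the spread. Fibrillar genes summed to 115, 162 and 78.6 CPM in DHT, against 176, 118 and 97.7 CPM in placebo, and the groups overlapped. Type IV genes summed to 60.1, 55.5 and 22.1 CPM in DHT, against 110, 57.8 and 18.7 CPM in placebo. All other genes summed to 889, 819 and 509 CPM in DHT, against 886, 1215 and 311 CPM in placebo, and without Col18a1 to 92.0, 84.9 and 47.9 CPM in DHT, against 139, 104 and 58.3 CPM in placebo. The log2 ratio of the group means was −0.14 for fibrillar, −0.44 for type IV and −0.12 for other genes, each smaller than the pooled SD of the log2 sums (0.481, 1.08 and 0.789). The sign of the fibrillar and other ratios turned with library size alone (0.04 and 0.06), that of the fibrillar ratio also without its highest gene, Col3a1 (0.28), and those of all 3 classes depended on single libraries: without placebo 1 the fibrillar ratio was 0.14 and that of type IV 0.26, without placebo 2 that of the other genes was 0.30, and without DHT 3 the fibrillar ratio was 0.09 and that of the other genes 0.09. No p-value is given for these sums.

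**Figure D4:**
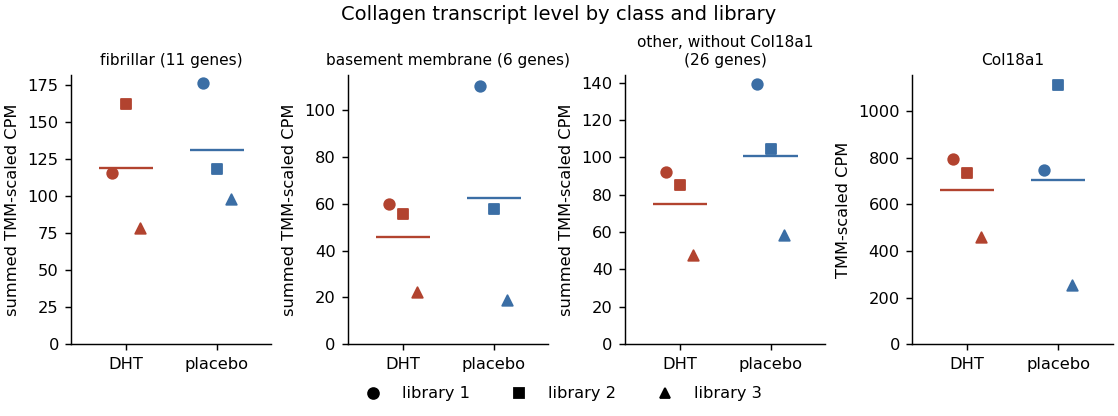
Summed TMM-scaled CPM of the fibrillar, type IV and other collagen genes (without Col18a1) and the CPM of Col18a1 alone (y axes, linear from 0) in the DHT and placebo libraries, with symbols for library 1, 2 and 3 and a line at the mean. The groups overlap in all 4 panels, and library 3 is the lowest of its group in each.

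In both groups library 3 was low in many collagen genes, though not always in the same genes. Across the 28 tested genes, the log2 ratio of library 3 to the mean of libraries 1 and 2 was compared between the groups. Its correlation between DHT and placebo was r = 0.377 (Spearman 0.296), as a description over genes that share libraries. In library 3 of DHT, 21 of the 28 tested genes were below the mean of libraries 1 and 2, 12 of them by more than 2-fold, and in library 3 of placebo these numbers were 22 and 15. Over all genes with a GC value, 4.56% were lower by more than 2-fold in library 3 of DHT and 19.1% in that of placebo, with medians of −0.01 and −0.06 on the log2 scale against −0.79 and −1.45 for the collagen genes. In 8 collagen genes library 3 was lower by more than 2-fold in both groups, a number that was not counted over all genes. Col1a1 was the most extreme, at 11.3-fold lower in DHT 3 and 11.8-fold lower in placebo 3. Col4a1 was lower by 2.78-fold and 4.94-fold and Col4a2 by 2.60-fold and 8.40-fold in DHT 3 and placebo 3. Col3a1, in contrast, was 3.08-fold lower in DHT 3 but not lower in placebo 3 (0.27 on the log2 scale). The labels give no reason for a shared number.

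GC content moved with this pattern in placebo 3. Over all genes tested, the median log2 ratio of library 3 to libraries 1 and 2 was −0.15 in DHT and −0.56 in placebo among the fifth of genes richest in GC (55.2 to 75.5%), and 0.16 in DHT and 0.39 in placebo among the fifth poorest in GC (22.1 to 43.7%). Across the 28 collagen genes the correlation of that ratio with GC content was r = −0.07 (Spearman −0.04) in DHT and r = −0.37 (Spearman −0.35) in placebo, as a description over genes that share libraries. The part of GC content in the collagen differences was read only from fits with GC and length trends removed. Without the replicate block 4 collagen genes were called, Col5a3, Col4a5, Col25a1 and Col4a3, against 507 of all 15126 genes tested. With the block 7 were called, which added Col27a1, Col6a1 and Col6a2, against 1560 of all 15126 genes.

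**Figure D5:**
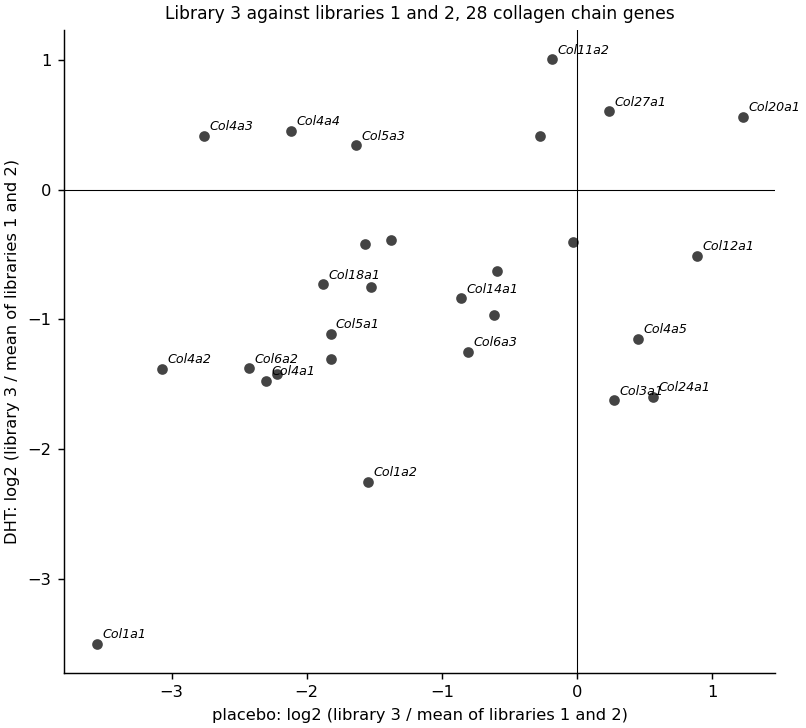
Log2 ratio of library 3 to the mean of libraries 1 and 2 in DHT (y axis) against the same ratio in placebo (x axis), 1 point for each of the 28 tested collagen chain genes. Most points lie below 0 on both axes, Col1a1 lies at the lower left, and Col3a1, Col4a5 and Col24a1 are among those below 0 in DHT 3 only.

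Of 98 tested genes in 6 lists of related genes 1 was called (1.02%), against 1.65% of all genes. Of 20 tested genes of folding and modification 0 were called in either direction, of 16 of procollagen processing and crosslinking 0, of 14 of breakdown 0, of 9 collagen receptors 0 and of 23 of TGF-β and profibrotic signals 0, by edgeR's quasi-likelihood test. Their median log2 fold changes were −0.23, −0.36, −0.29, −0.21 and −0.34, against −0.02 over all genes. Of 16 other basement membrane genes, 1 was called: Lamb3, the β3 chain of laminin-332, rose by 2.42 ± 0.44 on the log2 scale (edgeR adjusted p = 0.0407). Lamb3 had 1098, 421 and 366 counts in DHT and 143, 128 and 63 in placebo, and its call held in 11 of 17 alternatives. The call was lost without placebo 1, placebo 2, DHT 1, DHT 2 or DHT 3 (edgeR adjusted p = 0.155, 0.105, 0.125, 0.0843 and 0.0564). With limma voom and sample weights it was also lost (limma adjusted p = 0.0552). Lama3, the α3 chain of the same laminin, had a log2 fold change of 2.14 ± 0.50 (edgeR adjusted p = 0.0916). With the replicate block, 14 of the 98 were called (14.3%), 4 higher and 10 lower, against 10.7% of all genes.

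The members with the smallest p-values in the other lists lay on both sides. Ctgf, a matricellular target of TGF-β, had 147, 99 and 63 counts in DHT and 803, 202 and 328 in placebo (log2 fold change −2.14 ± 0.48, edgeR adjusted p = 0.082; replicate block, edgeR adjusted p = 1.51e-05). An opposite-strand gene overlaps 23.2% of Ctgf exon bases. Tgfbr3, a TGF-β co-receptor, had a log2 fold change of −1.18 ± 0.33 (edgeR adjusted p = 0.145; replicate block, edgeR adjusted p = 0.00543). Lum, a proteoglycan that binds fibrils, was at −1.25 ± 0.34, Crtap, part of the prolyl 3-hydroxylase complex, at −1.04 ± 0.30, and Colgalt2, a collagen galactosyltransferase, at −1.79 ± 0.44 (edgeR adjusted p = 0.138, 0.158 and 0.1). Each of these 3 passed with the replicate block (edgeR adjusted p = 0.00529, 0.0177 and 0.0129). Timp3, an inhibitor of matrix metalloproteinases, was at −1.45 ± 0.54, Ctsk, a collagen-cleaving protease, at −1.23 ± 0.47, and Ddr1, a collagen receptor kinase, at −1.28 ± 0.57 (edgeR adjusted p = 0.252, 0.262 and 0.321; replicate block, edgeR adjusted p = 0.00227, 0.0791 and 0.0338). In the other direction were Loxl4, a lysyl oxidase that crosslinks collagen (1.57 ± 0.43), and Itga10, a collagen-binding integrin chain (1.94 ± 0.59), with edgeR adjusted p = 0.138 and 0.168 and, in the replicate block, 0.0095 and 0.0317. Overlapping genes cover 21.3% of Timp3 exon bases on the opposite strand and 33.5% of those of Itga10 on the same strand.

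Markers of collagen-making cells were read beside these values. Over all genes tested 1.65% were called, so 0 calls in lists this short do not show an absence of change. Of 13 stellate cell markers 0 were called, and they summed to 504 to 704 CPM in DHT and 426 to 857 CPM in placebo. That sum was led by Tmem56 (289 ± 54.9 CPM in DHT, 130 ± 45.7 CPM in placebo), and without it the other 12 summed to 264 to 355 CPM in DHT and 341 to 729 CPM in placebo. Activated myofibroblast markers (0 of 5 tested called) summed to 10.6 to 22.4 CPM in DHT and 19.7 to 39.0 CPM in placebo, and portal fibroblast markers (0 of 9) to 40.1 to 99.8 CPM in DHT and 62.0 to 79.0 CPM in placebo. Vascular smooth muscle markers (0 of 3) summed to 3.98 to 7.74 CPM in DHT and 3.91 to 17.4 CPM in placebo. Sinusoidal endothelial markers (0 of 10) summed to 195 to 263 CPM in DHT and 197 to 438 CPM in placebo, and cholangiocyte markers (0 of 7) to 13.1 to 20.3 CPM in DHT and 14.6 to 23.98 CPM in placebo. Markers of large vessel endothelium (0 of 6), mesothelium (0 of 5), Kupffer cells (0 of 7) and hepatocytes (0 of 8) held no called gene either. Hepatocyte markers, which check the labelled tissue, summed to 75240 to 89060 CPM in DHT and 96960 to 135000 CPM in placebo, without overlap. Log2 fold changes were below 0 in 51.9% of all genes tested. They were below 0 in 10 of 13 stellate, 9 of 10 sinusoidal, 7 of 8 hepatocyte and 5 of 5 mesothelium markers. The same held for 4 of 5 myofibroblast, 5 of 9 portal fibroblast, 2 of 3 smooth muscle and 5 of 7 cholangiocyte markers. For Kupffer cells it was 1 of 7, and for large vessel endothelium 1 of 6. The part of cell composition in the collagen differences was not tested.

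Col5a3 is known from adipose tissue, so adipocyte markers were read as well. Of 5, 1 could be tested, Cfd, the complement protease adipsin, and it rose, with 270, 803 and 2475 counts in DHT and 3, 4 and 7 in placebo (log2 fold change 8.07 ± 1.11, edgeR adjusted p = 0.0134). The other adipocyte markers were at or near 0: Lep had 0 counts in all libraries, Adipoq had 0, 0 and 1 in DHT and 1, 0 and 2 in placebo, and Plin1 and Retn had at most 2 in any library. Summed adipocyte markers were 4.42, 14.4 and 55.5 CPM in DHT libraries 1 to 3 and 0.0688, 0.0985 and 0.185 CPM in placebo libraries 1 to 3. In DHT that sum was nearly all Cfd (4.38, 14.4 and 55.4 CPM), so it is not a measure of adipocyte content. Col5a3 had 25.1, 29.6 and 34.6 CPM in DHT. The part of adipose tissue in the Col5a3 difference was not tested. Exocrine pancreas markers summed to at most 0.0447 CPM in DHT and 0.0206 CPM in placebo.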

How the data were processed

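Each deposited file holds whole-number counts per gene that the authors made from paired-end reads of 1 liver library, beside gene positions and exon lengths, per the file headers. The submitters' processing notes name Trimmomatic 0.36, STAR 2.5.2b, featureCounts, Subread 1.5.2 and build GRCm38; strand setting and multimapping rules: not given in the sources used here. In R 4.3.3, edgeR 4.0.16 was run on all genes with filterByExpr by group, TMM scaling (factors 0.921 to 1.08) and the robust quasi-likelihood test, DHT against placebo, without covariates. CPM values in the text are TMM-scaled. Each SE was taken as the absolute log2 fold change over the root of the F statistic. DESeq2 1.42.0 and limma 3.58.1 were alternatives.

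Named genes are the called members, the 3 highest per kb and the 3 with the smallest p of each class, all chains of types I, III, IV, V and VI, and for other lists the called genes and the 2 with the smallest p; the rest are given by range or count, and Col12a1, Col13a1, Col15a1, Col16a1, Col20a1, Col23a1, Col24a1, Col9a2, Col28a1, Col26a1, Tmem56 and the adipocyte genes were named after their values were seen. The members, lists and tests were chosen with earlier results of these data known. Libraries with the same number deviated together from their group means (correlations 0.245, 0.145 and 0.602 for numbers 1, 2 and 3). Every one was over 0.1, the limit set for pairing. The number was therefore used as a block in alternatives, and not in the main fit. The titles state no shared source, so the block was read from these same data and is not part of the stated design. Numbers 1 and 2 correlated more across than within (DHT 1 with placebo 2, 0.445; DHT 2 with placebo 1, 0.287), so only number 3 correlated best with its own number. No 2 libraries of a group agreed within sampling noise (chi-square per degree of freedom at least 104).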

Additional observations from a re-analysis of the deposited data

How the results depend on the processing

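Over all genes, 250 calls became 521 with no low-count filter, 1621 with the replicate block, 1062 with DESeq2, 744 with limma voom, and 84 to 862 when 1 library was left out. In alternatives added after seeing the data, the number was 448 without both libraries numbered 3, 507 with GC and length trends removed, and 1560 with those trends removed and the replicate block. The 3 collagen calls became 7 with the replicate block, 7 with the trends removed and the block, 5 with DESeq2, 5 with limma voom, and 1 to 5 when 1 library was left out. Over the 6 lists of related genes, the 1 call became 3 with no low-count filter, 14 with the replicate block, 15 with the trends removed and the block, 4 with the trends removed alone, 8 with DESeq2, 2 with limma voom, 2 without both libraries numbered 3, and 0 to 8 when 1 library was left out. Scaling by library size alone moved the all-gene median log2 fold change from −0.02 to 0.17. It gave 207 higher and 89 lower calls, against 144 and 106 with TMM.

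Some genes that were not called changed sign. Col18a1 was at 0.0998 with library size alone, 0.12 with the replicate block and −0.49 to 0.40 when 1 library was left out. Col4a2 was at 0.19 with the replicate block, 0.0502 with the trends removed and the block, and −0.73 to 0.61 when 1 library was left out. Col6a6 was at 0.1034 with library size alone and at −0.50 to 0.17 when 1 library was left out. When 1 library was left out, Col5a2 ranged from −0.81 to 0.19, Col5a1 from −0.61 to 0.41, Col4a1 from −0.75 to 0.54 and Col1a1 from −1.22 to 0.32. The cause was not tested. The class sums moved by less than 1 pooled SD in every alternative run. Without both libraries numbered 3, no type I or VI gene was called, and the 16 genes under the count filter have no test.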
